A study of Mus musculus with 6 samples.

Results

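Parathyroid hormone (PTH) against vehicle was examined in Ocy454 cells, a mouse osteocytic cell line, with 2 PTH libraries and 2 vehicle libraries of the 6 in the series. Cells were grown to confluence at 33 °C, kept for 14 days at 37 °C, and treated for 4 h with 1 nM PTH 1-34 or with vehicle, PBS with 25 mM HCl. All cells were from this 1 line and received new medium 24 h before collection. The series also holds 2 libraries treated with YKL-05-093, which entered the filter on low values and 1 alternative fit, not the comparison described. Total RNA depleted of ribosomal RNA was sequenced, and expression was deposited as RPKM, reads scaled by the length of the gene and by the size of the library. Of 39179 listed genes, 14261 were tested, and the response is described here for 66 gene families ordered from the receptor to the secreted and structural products.

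PTH acts on osteocytes through PTH1R, a receptor that couples to Gs, raises cyclic AMP and activates protein kinase A. Protein kinase A phosphorylates CREB factors and also inhibits the salt-inducible kinases, which otherwise hold CRTC coactivators and class IIa histone deacetylases in the cytoplasm. In bone this hormone is known for raising RANKL, the cytokine that drives osteoclast formation, and for lowering sclerostin, a Wnt inhibitor made by osteocytes.

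The libraries held 17505798 and 27983585 reads for vehicle and 21607344 and 19073347 for PTH, recovered from the steps between RPKM values. The vehicle pair was wider than the PTH pair, with a median absolute log2 difference of 0.333 against 0.108 over the tested genes. This difference followed gene length: among protein-coding genes, vehicle replicate 2 minus replicate 1 had a median of 0.30 on the log2 scale in the 2818 shortest (median 1634 bases) and -0.49 in the 2818 longest (median 7814 bases). Osteoblast markers were present, with Col1a1 between 259 and 430 RPKM in the 4 libraries. Osteocyte markers were uneven, with Pdpn between 53.1 and 170 RPKM, Phex between 0.764 and 4.93 RPKM and Dmp1 between 0.643 and 1.16 RPKM. Mepe was at 0.136 and 0.0426 RPKM in vehicle and at 0 in both PTH libraries, and Fgf23 was at 0 in all 4. Sclerostin reads (Sost) numbered 0 and 3 in vehicle and 0 and 0 after PTH, so that a change was not detectable at this depth. Of 6 skeletal muscle markers, the defining Myod1, Myog and Ckm were at 0 in all 4 libraries, as were Cdh5 of endothelium and Acp5 and Ocstamp of osteoclasts. The other muscle markers, Acta1, Des and Myh3, reached at most 0.422, 0.282 and 0.0237 RPKM. Endothelial Tek, Vwf, Pecam1 and Emcn reached at most 0.483, 0.202, 0.101 and 0.0203 RPKM. Of the adipocyte list, Fabp4 stood between 1.08 and 2.27 RPKM and was not called, and the rest reached at most 0.0403 RPKM. Ctsk of the osteoclast list stood between 74.1 and 94.7 RPKM, Mmp9 between 0.421 and 0.580 RPKM and endothelial Kdr between 0.476 and 1.06 RPKM, and none of these was called. The summed haematopoietic markers stood at 6.10 and 6.72 RPKM in vehicle and 7.90 and 6.70 RPKM in PTH. Cd68 (3.69 to 4.34 RPKM) and Cd14 (1.89 to 3.04 RPKM) made up most of this sum. Lyz2 reached at most 0.367 RPKM, Csf1r 0.133 RPKM, Ptprc 0.0263 RPKM and Itgam 0.0177 RPKM. In RNA pooled from many cells, a change in the number of cells of a type and a change in RNA per cell cannot be told apart. The samples are labelled as replicates without mention of separate cultures, so p-values measure only the spread between these samples.

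In all, 272 genes (1.91% of those tested) changed more than 2-fold at an adjusted p under 0.05 in limma, 156 higher (1.09%) and 116 lower (0.813%). Such genes are referred to as called, rising or falling, and 1897 genes had an unadjusted p under 0.05. The 66 families held 141 of the called genes among 3424 tested members (4.12%), and the genes in no family held 131 among 10837 (1.21%). Since the families were chosen with earlier results of these data known, the difference between these shares is not a result about them. In the 272 called genes the PTH and vehicle libraries did not overlap, which was also the case for 43.1% of all tested genes. Leaving out PTH replicate 1 or PTH replicate 2 left 14 calls each, and leaving out vehicle replicate 1 or 2 gave 399 or 669, with 254 or 256 of the 272 among them. Called with any single library left out were 13 genes, among them Tnfsf11, Rasl10b, Wnt4, Vdr, Crispld2, Tll1, Cxcl1, Shc2, Kcne4 and Pde4b, which were higher, and Nuak1 and Smpd3, which were lower. Every other call named below, except those of Slc7a7 and Ahrr, was lost when PTH replicate 1 was left out and also when PTH replicate 2 was, while all 272 kept their direction in these 4 fits. Calls were also lost without vehicle replicate 1 for Snora28, Inhba, Runx1 and Wnt10b and without vehicle replicate 2 for Tnfrsf11b, Egr2, Efnb2, Cdc42ep1, Gadd45g, Sfrp1 and Irx1. By the GENCODE M21 annotation, exons of another gene lie on the other strand within 58 of the 272 called genes, and since the use of strand in counting is not stated, reads of the pair cannot be told apart. Among the genes named here these are Slc7a7, Stat3, Ksr1, Shc2, Has2, Runx1, Pdgfa, Hdac4, Lef1, Tgfa, Il4ra, Chst15, Irx3, Smpd3, Mcam, Chsy1, Gadd45a, Spry1, Lrrc17, Thbs1, Foxf1, Notum, Fzd5, Fam69c, Cdc42ep1, Phospho1, Bcl3, Cebpb, Crem, Cebpd, 6330403L08Rik and Gm16062. With 2 libraries against 2, an exact permutation test cannot give a p below 0.333, so the calls depend on limma's pooling of the spread over genes.

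**Figure D1:**
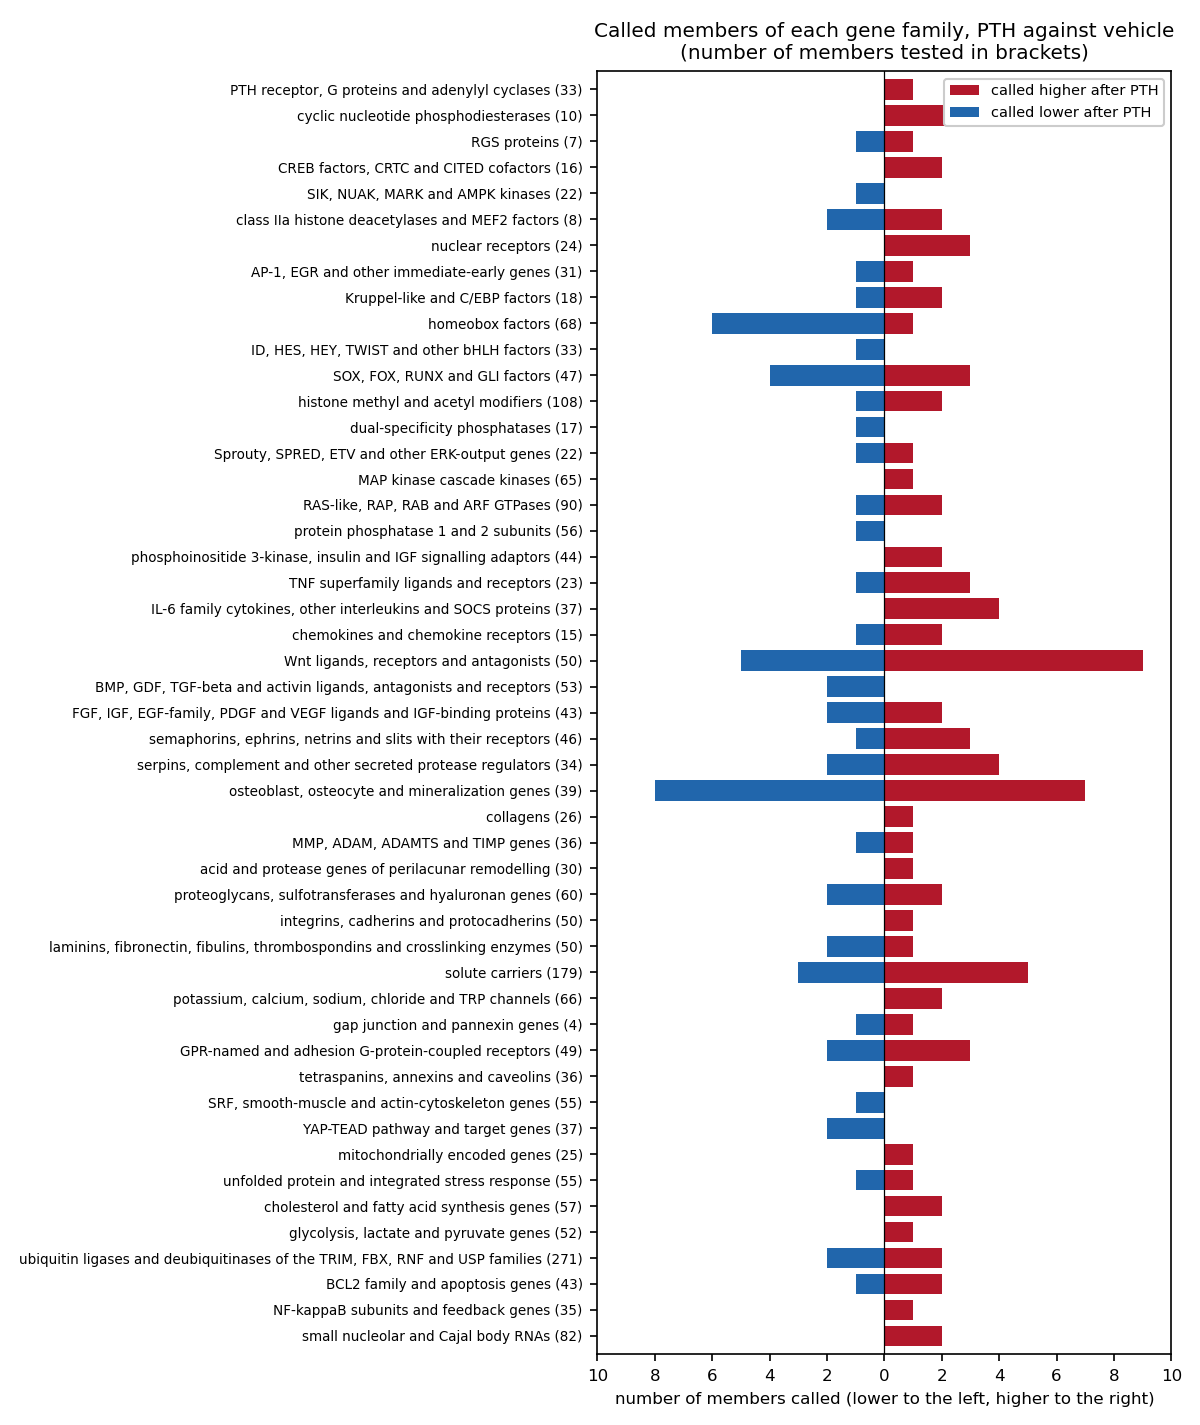
Number of members called higher (red, to the right) and lower (blue, to the left) after PTH in families with a called member, with the number of members tested in brackets. The Wnt family (9 higher, 5 lower) and the osteoblast, osteocyte and mineralization genes (7 higher, 8 lower) had the longest bars, and homeobox factors were called mostly lower (1 higher, 6 lower).

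Upstream in the pathway, few genes of the receptor complex and of protein kinase A were called, and 3 of 10 phosphodiesterase entries were called higher. Pth1r, the receptor itself, had 52.1 and 63.4 RPKM in the vehicle libraries and 38.5 and 33.4 RPKM after PTH, a log2 difference of -0.68 (SE 0.18, adjusted p = 0.148, not called). Its PTH libraries lay below both vehicle libraries. Gnas was listed at 0.559 and 0.721 RPKM in vehicle and 0.467 and 0.622 RPKM after PTH (adjusted p = 0.768), and the groups overlapped. The paper detected the Gs alpha protein in this cell line by immunoblot, so these low values cannot be read as near absence of Gs alpha. Of 33 tested members of the receptor, G-protein and adenylyl cyclase family, 1 was called, the G-protein gamma subunit Gng4, which rose from 0.602 and 0.743 to 3.69 and 3.24 RPKM (log2 fold change 2.21, SE 0.20, adjusted p = 0.00289). Of 19 subunits, inhibitors and anchors of protein kinase A, 0 were called by limma or by voom and 7 had an unadjusted p under 0.05. The 3 largest changes there were log2 fold changes of -0.96 for Akap6, -0.90 for Akap17b and -0.88 for Akap1, all anchoring proteins, with adjusted p = 0.0924, 0.237 and 0.0454, the last below 2-fold.

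Phosphodiesterases degrade cyclic nucleotides, and 3 of 10 tested entries rose (30%), all of the cAMP-specific PDE4 class. Pde4b had 0.453 and 0.421 RPKM in vehicle and 3.21 and 2.93 RPKM after PTH, a 7.02-fold difference (log2 fold change 2.56, SE 0.16, adjusted p = 0.000991). Pde4d is listed under 2 identifiers that could divide its reads, and both are among the 3 called entries. The deeper of them rose from 1.9 and 1.36 to 7.74 and 7.46 RPKM (adjusted p = 0.00274). With a median log2 fold change of 0.60 against -0.03 over all tested genes, this family had the highest median after the small nucleolar RNAs. Its median was 0.84 without vehicle replicate 1, with 5 called higher, and 0.35 without vehicle replicate 2, with 3, and 1 was called without either PTH library. RGS proteins, which speed the shut-off of G-protein alpha subunits, went both ways among 7 tested members. Rgs2 rose from 1.81 and 2.66 to 6.15 and 6.06 RPKM, and Rgs3 fell from 1.16 and 1.53 to 0.424 and 0.358 RPKM (log2 fold changes 1.43 and -1.55, adjusted p = 0.0175 and 0.0111).

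Among 22 tested SIK, NUAK, MARK and AMPK kinases, 1 was called. Nuak1, an AMPK-related kinase, had 33.7 and 23.7 RPKM in vehicle and 3.45 and 3.5 RPKM after PTH, 8.26-fold lower (log2 fold change -2.99, SE 0.20, adjusted p = 0.00137). Class IIa deacetylases repress MEF2 factors, and 4 of the 8 entries of this family were called (50%), of which 2 are identifiers of the same gene, Hdac4. Hdac4 rose, from 10.9 and 6.74 to 28.1 and 26.6 RPKM under the deeper of its 2 identifiers (adjusted p = 0.0173), while Hdac9 fell from 3.25 and 2.62 to 0.504 and 0.571 RPKM (log2 fold change -2.25, adjusted p = 0.00255). Mef2c, which drives sclerostin expression through a bone enhancer, fell from 56.1 and 35.5 to 17.3 and 15.7 RPKM (log2 fold change -1.43, adjusted p = 0.0290). The vehicle libraries of Mef2c stood further apart than its PTH libraries, and the members of this family had a median of -0.52 on the log2 scale for vehicle replicate 2 minus replicate 1. All 4 calls were also made with either vehicle library left out.

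**Figure D2:**
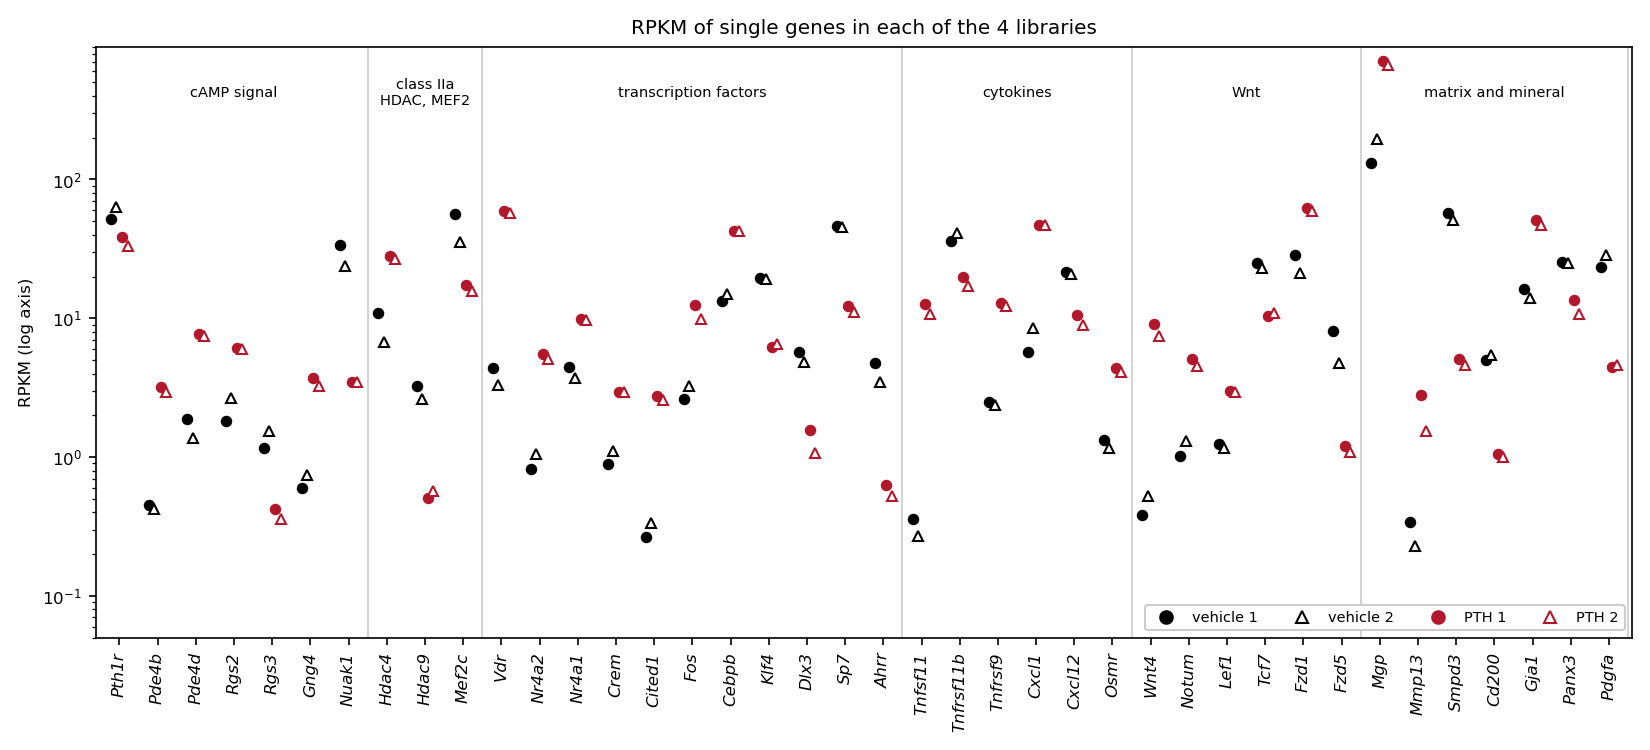
RPKM on a log axis for 40 genes in vehicle replicates 1 and 2 (black) and PTH replicates 1 and 2 (red), grouped by role. Except for Pth1r, all of these genes were called, and the 2 red symbols lie above or below both black symbols, as in Cited1 with 0.267 and 0.334 RPKM in vehicle and 2.75 and 2.56 RPKM after PTH.

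Called transcription factors went both ways, by family. Of 24 nuclear receptors, 3 rose and 0 fell, although Pparg had a log2 fold change of -1.26 (adjusted p = 0.0585). The vitamin D receptor Vdr (chromosome 15, 97854425 to 97910630 on GRCm38) rose 15.1-fold, from 4.41 and 3.31 to 59.6 and 56.9 RPKM. The orphan receptor Nr4a2 rose from 0.819 and 1.05 to 5.49 and 5.13 RPKM and Nr4a1 from 4.45 and 3.72 to 9.85 and 9.76 RPKM (log2 fold changes 2.39 and 1.25, adjusted p = 0.00166 and 0.0130). Among 16 CREB factors and cofactors, 2 were called. Crem, which also encodes the inducible repressor ICER, rose from 0.890 and 1.1 to 2.92 and 2.94 RPKM (adjusted p = 0.00791), and the coactivator Cited1 from 0.267 and 0.334 to 2.75 and 2.56 RPKM (adjusted p = 0.00227). The genes encoding the CRTC coactivators themselves, Crtc1, Crtc2 and Crtc3, were not called, with log2 fold changes of -0.32, -0.04 and -0.43 (given after their values were seen).

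Of 31 immediate-early genes, Fos was called higher and Egr2 lower. Fos, a subunit of AP-1, had 2.6 and 3.26 RPKM in vehicle and 12.5 and 9.96 RPKM after PTH (log2 fold change 1.90, adjusted p = 0.00456). Egr2, a zinc-finger factor of the same early class, had 7.1 and 8.65 and 3.38 and 3.86 RPKM (-1.09, adjusted p = 0.0259). Of 18 Kruppel-like and C/EBP factors, 2 C/EBP members rose, 1 Kruppel-like member fell and 15 were not called. Cebpb rose from 13.2 and 15 to 42.7 and 42.2 RPKM and Cebpd from 15.6 and 21.3 to 45.5 and 41.7 RPKM, whereas Klf4 fell from 19.5 and 19.1 to 6.22 and 6.54 RPKM (adjusted p = 0.00410, 0.0222 and 0.00396). Exons of Tmem189 overlap Cebpb on the other strand and exons of Spidr overlap Cebpd.

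Homeobox factors pattern the skeleton, and 1 of 68 tested members rose and 6 fell (10.3% called), with a median log2 fold change of -0.18. Dlx3, a regulator of osteoblast differentiation, fell from 5.72 and 4.82 to 1.56 and 1.07 RPKM (log2 fold change -1.94, adjusted p = 0.00713). The Iroquois genes Irx1, Irx3 and Irx5 were all called lower, by 1.01, 1.06 and 1.11 on the log2 scale (Irx1 and Irx3 are named after their values were seen). With each library centred on its median, 4 homeobox factors were called lower.

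In the family of SOX, FOX, RUNX and GLI factors, 3 of 47 rose and 4 fell (14.9% called). The list under this name also holds factors of other classes, such as Sp7, Snai1 and Tbx2, and they are part of these counts. Sp7, or osterix, the factor that commits cells to the osteoblast lineage, had 46 and 45.5 RPKM in vehicle and 12.2 and 11.1 RPKM after PTH, 3.94-fold lower (log2 fold change -1.97, SE 0.16, adjusted p = 0.00188). Runx2 itself went from 19.5 and 13 to 7.87 and 7.02 RPKM and did not pass (adjusted p = 0.0624), whereas Runx1 fell from 12.3 and 7.64 to 3.85 and 3.79 RPKM (adjusted p = 0.0363). Glis1 rose from 0.447 and 0.492 to 3.41 and 3.21 RPKM, Foxf1 from 0.690 and 0.410 to 1.89 and 1.65 RPKM and Snai1 from 1.52 and 1.19 to 3.32 and 4.15 RPKM. Tbx2, a T-box repressor, fell from 5.67 and 6.24 to 2.07 and 2.2 RPKM (adjusted p = 0.00641). Ahrr, the repressor of the aryl hydrocarbon receptor and the 1 called gene of 33 bHLH factors, fell 7.1-fold, from 4.76 and 3.45 to 0.629 and 0.527 RPKM (log2 fold change -2.62, adjusted p = 0.00166). In contrast, 0 of 278 numbered zinc finger proteins were called by limma and 1 by voom, with 15 at an unadjusted p under 0.05 and a median log2 fold change of 0.03.

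Because CREB binds the cAMP response element, promoters from RefSeq (GRCm38.p6, 250 bases before to 50 after the start) were searched on both strands. They were matched by symbol to 97 of 153 genes called higher, 80 of 116 called lower and 8822 of 14241 tested. The full element TGACGTCA stood in 4 promoters of genes called higher (4.12%), 3 of genes called lower (3.75%) and 326 of all tested genes (3.70%), and in 2.03% of all promoters in the table. Its shorter site TGACG, which the full element contains, stood in 36.1%, 30% and 36.8% of the same groups and in 23% of all promoters. The AP-1 element TGANTCA stood in 10 promoters of genes called higher (10.3%), 7 of genes called lower (8.75%), 5.80% of tested genes and 8.97% of all promoters. For the NR4A element AAAGGTCA these were 1.03%, 1.25%, 1.02% and 1.70%, for the E-box CACGTG 12.4%, 17.5%, 12.1% and 8.09%, and for the EGR element GCGTGGGCG 2.06%, 1.25%, 1.48% and 0.707%. The 4 promoters of genes called higher that held the full element are printed from 250 bases before to 30 bases after the start, 5′ to 3′ on the gene's strand, with the element in capitals, because they show where it lay relative to the start. Mcam, a cell adhesion molecule, rose from 1.91 and 1.57 to 8.25 and 8.72 RPKM (log2 fold change 2.23, adjusted p = 0.00166) and held it 29 bases before the start. In Arl4d, a small GTPase, and Scg2, a secretory granule protein (log2 fold changes 1.31 and 1.19), it began 26 and 68 bases before the start. In Gm16062 (log2 fold change 1.44), whose exons overlap Cops3 on the other strand, it lay just after the start.
Mcam, chr9:44134408-44134687, plus strand: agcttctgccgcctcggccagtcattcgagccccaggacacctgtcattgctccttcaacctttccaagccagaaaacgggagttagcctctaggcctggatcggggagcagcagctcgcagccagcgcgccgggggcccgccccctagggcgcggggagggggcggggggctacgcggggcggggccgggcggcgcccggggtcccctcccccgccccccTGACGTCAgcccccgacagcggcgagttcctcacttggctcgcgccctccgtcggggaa
Arl4d, chr11:101665291-101665570, plus strand: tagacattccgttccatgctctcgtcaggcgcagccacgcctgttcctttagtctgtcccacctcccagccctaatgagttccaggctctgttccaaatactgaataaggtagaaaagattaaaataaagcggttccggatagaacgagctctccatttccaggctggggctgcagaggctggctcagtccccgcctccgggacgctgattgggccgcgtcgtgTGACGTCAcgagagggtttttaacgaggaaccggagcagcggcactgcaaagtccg
Scg2, chr1:79439997-79440276, minus strand: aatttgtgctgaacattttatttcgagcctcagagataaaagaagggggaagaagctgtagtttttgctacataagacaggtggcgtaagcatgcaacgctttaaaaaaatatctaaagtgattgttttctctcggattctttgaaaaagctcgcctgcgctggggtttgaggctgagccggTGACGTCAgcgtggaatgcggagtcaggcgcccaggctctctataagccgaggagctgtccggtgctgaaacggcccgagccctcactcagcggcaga
Gm16062, chr11:59809830-59810109, plus strand: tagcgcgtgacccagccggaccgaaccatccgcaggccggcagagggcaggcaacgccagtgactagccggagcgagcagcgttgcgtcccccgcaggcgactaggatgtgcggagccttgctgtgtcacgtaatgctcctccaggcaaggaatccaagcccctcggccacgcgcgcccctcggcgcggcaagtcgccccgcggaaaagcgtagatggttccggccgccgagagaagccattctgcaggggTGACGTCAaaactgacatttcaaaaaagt

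Kinase and GTPase signalling genes were called in small numbers. Of 22 ERK-output genes, Plaur rose and Spry1 fell. Spry1, a feedback inhibitor of receptor tyrosine kinases, went from 4.86 and 5.09 to 1.89 and 1.51 RPKM (log2 fold change -1.50, adjusted p = 0.00901). Among 17 dual-specificity phosphatases, Dusp7 fell from 11.8 and 11.2 to 4.68 and 5.11 RPKM, and of 65 MAP kinase cascade genes the scaffold Ksr1 rose from 3.0 and 1.98 to 7.28 and 6.72 RPKM (adjusted p = 0.0111 and 0.0179). None of the 32 receptor tyrosine kinases was called by limma or voom, with 7 at an unadjusted p under 0.05 and log2 fold changes between -0.70 and 0.71. Of 44 phosphoinositide 3-kinase, insulin signalling and adaptor genes, 2 rose and 0 fell around a median of -0.11. Shc2, an adaptor, rose 6.93-fold, from 1.85 and 1.58 to 12.5 and 11.2 RPKM (log2 fold change 2.73, adjusted p = 0.000991), and the pseudokinase Trib2 from 11.3 and 10.2 to 27.2 and 26.7 RPKM. Rasl10b, a RAS-like GTPase, had 5 and 12 reads in vehicle and 236 and 218 after PTH. Rasl11a, of the same superfamily, fell from 14.5 and 18.4 to 6.89 and 4.77 RPKM. The guanine nucleotide exchange factor Net1 rose from 14.1 and 11.2 to 46.3 and 43.4 RPKM, and the exchange factor Fgd3 and the Cdc42 effector Cdc42ep1 fell, Fgd3 from 2.2 and 1.67 to 0.381 and 0.424 RPKM (adjusted p = 0.00402, 0.00402 and 0.0290).

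Cytokine and chemokine genes included the largest rise of the comparison. Tnfsf11, which encodes RANKL (chromosome 14, 78277445 to 78308043), had 14 and 17 reads in the vehicle libraries and 609 and 453 after PTH. This was 0.358 and 0.272 RPKM against 12.6 and 10.7 RPKM, a 36.9-fold difference (log2 fold change 4.82, SE 0.21, adjusted p = 0.000456). Its decoy receptor osteoprotegerin, Tnfrsf11b, fell from 35.9 and 41.2 to 19.7 and 17.1 RPKM (log2 fold change -1.06, SE 0.17, adjusted p = 0.0263) and its PTH libraries lay below both vehicle libraries. In the same TNF family, 3 of 23 tested members rose and 1 fell (17.4% called), and its receptors included Tnfrsf9, which rose from 2.49 and 2.38 to 12.9 and 12.3 RPKM, and Tnfrsf19, which rose from 10.2 and 8.44 to 31.4 and 27.9 RPKM.

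Of 37 interleukin, IL-6 family and SOCS genes, 4 rose and 0 fell. They were Il1rl1, the IL-33 receptor, with 3.83 and 4.72 and 16.1 and 15.2 RPKM, the oncostatin M receptor Osmr with 1.33 and 1.16 and 4.39 and 4.09 RPKM, the transducer Stat3 with 13.8 and 9.89 and 29.4 and 27.6 RPKM, and Il4ra, named after its values were seen, with 4.45 and 4.35 and 9.7 and 9.68 RPKM (adjusted p = 0.00339, 0.00370, 0.0254 and 0.0136). Exons of Stat5a overlap Stat3 on the other strand. Among 15 chemokine genes, the neutrophil attractant Cxcl1 rose 6.58-fold, from 5.72 and 8.47 to 46.8 and 46.7 RPKM, and Cxcl12, which retains haematopoietic cells, fell from 21.4 and 20.7 to 10.5 and 8.91 RPKM. Ackr3, a scavenging receptor for Cxcl12, rose from 1.83 and 1.82 to 4.69 and 3.93 RPKM (adjusted p = 0.00166, 0.0217 and 0.0179). Of 35 NF-kappaB genes, 1 was called, Bcl3, below the depth of 50 reads and named after its values were seen (0.145 and 0.0909 and 0.706 and 0.762 RPKM).

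The Wnt family, whose signals drive bone formation, had 14 of 50 tested members called (28%), 9 higher and 5 lower, around a median of -0.17. Of the ligands, Wnt4 rose 18.4-fold, from 0.382 and 0.520 to 9.15 and 7.5 RPKM (log2 fold change 3.94, SE 0.20, adjusted p = 0.000537). Wnt9a rose as well (log2 fold change 2.02), and Wnt10b fell by 1.03 on the log2 scale. Notum, a secreted enzyme that inactivates Wnt proteins, rose from 1.02 and 1.3 to 5.08 and 4.53 RPKM (adjusted p = 0.00396), with exons of Notumos and Myadml2os on the other strand. Of the called genes that encode other inhibitors, Sfrp4, Sfrp1, Wif1 and Kremen1 were higher, with log2 fold changes of 2.05, 1.10, 1.29 and 1.28, and Rnf43, a ligase that removes Frizzled receptors, was lower. Receptors went both ways. Fzd1 rose from 28.4 and 21.3 to 62.2 and 58.9 RPKM, Fzd8 fell from 7.07 and 6.03 to 2.59 and 2.41 RPKM, and Fzd5 fell 5.61-fold, from 8.1 and 4.76 to 1.2 and 1.09 RPKM (adjusted p = 0.0206, 0.00993 and 0.00540). Rnf43 fell from 2.15 and 1.59 to 0.774 and 0.537 RPKM. Of the nuclear factors, Lef1 rose from 1.24 and 1.16 to 3.0 and 2.94 RPKM and Tcf7 fell from 25.1 and 23.1 to 10.5 and 10.9 RPKM. Axin2, a target of beta-catenin signalling, was not called (log2 fold change -0.63, adjusted p = 0.168). Members beyond Wnt4, Notum, Fzd1, Fzd5, Fzd8 and Rnf43 are named after their values were seen. Wnt9a and Sfrp4 (adjusted p = 0.0186 and 0.0277 in limma) lay below a mean of 50 reads. The family counts were 9 higher and 4 lower without vehicle replicate 1 and 8 and 7 without vehicle replicate 2, and Wnt4 alone remained called without either PTH library.

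Other secreted growth factors were called in lower numbers. Of 53 BMP, TGF-beta and activin genes, 2 fell, Bmp2 from 7.78 and 6.88 to 3.39 and 3.11 RPKM and the activin subunit Inhba from 6.97 and 4.76 to 2.41 and 2.44 RPKM (adjusted p = 0.0165 and 0.0385). Of 43 FGF, IGF, EGF-family, PDGF and VEGF genes, 2 rose and 2 fell. Pdgfa, a mitogen for mesenchymal cells, fell 5.74-fold, from 23.3 and 28.7 to 4.44 and 4.64 RPKM (log2 fold change -2.49, adjusted p = 0.00141), with exons of 6330403L08Rik on the other strand, which was itself called lower. The peptide ligand Apln fell from 47.2 and 44.8 to 16.5 and 17.1 RPKM, Igf1 rose from 1.84 and 1.18 to 3.8 and 3.9 RPKM, and Tgfa rose from 0.487 and 0.288 to 2.19 and 1.2 RPKM (adjusted p = 0.00582, 0.0271 and 0.0366). Among semaphorin, ephrin, netrin and slit genes, 3 of 46 rose and 1 fell. Nrp1, a coreceptor for semaphorins and VEGF, rose 5.57-fold, from 5.14 and 2.91 to 22.4 and 22.4 RPKM (adjusted p = 0.00469). Efnb2 rose from 4.71 and 3.74 to 8.22 and 8.78 RPKM, at the edge of the 2-fold limit with a log2 fold change of 1.00.

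The osteoblast, osteocyte and mineralization genes had the highest share of called members among families with more than 10 tested, 15 of 39 (38.5%), 7 higher and 8 lower, and a median of 0.00. The list was written with results of these data known and holds several of the genes that changed most. Smpd3, a neutral sphingomyelinase needed for mineralization (chromosome 8, 106252548 to 106337988), fell 11.2-fold, from 57.8 and 51 to 5.07 and 4.63 RPKM, and exons of Prmt7 overlap it on the other strand. Phospho1, a phosphatase that starts mineral deposition in matrix vesicles and is named after its values were seen, fell from 3.66 and 4.12 to 1.08 and 1.23 RPKM (log2 fold change -1.67, adjusted p = 0.0109). Mgp, an inhibitor of mineralization, rose 4.21-fold, from 132 and 196 to 715 and 668 RPKM (log2 fold change 2.10, SE 0.22, adjusted p = 0.00522). Cd200, a membrane glycoprotein, fell 5.08-fold, from 5.02 and 5.42 to 1.05 and 1.01 RPKM. The osteocalcin genes Bglap and Bglap2 were called higher, with log2 fold changes of 1.58 and 1.49, and since they are near-identical copies their reads may be divided between them. Pdpn, an early osteocyte marker, had 53.1 and 71.3 RPKM in vehicle and 170 and 163 RPKM after PTH, and Tmem119, a promoter of osteoblast differentiation, had 187 and 242 and 97 and 84.5 RPKM (log2 fold changes 1.44 and -1.23). Bglap, Bglap2, Pdpn and Tmem119 are named after their values were seen. Alpl, Col1a1, Col1a2 and Dmp1 were not called (log2 fold changes 0.27, 0.33, 0.31 and -0.26). The summed osteoblast and osteocyte markers stood at 870 and 687 RPKM in vehicle and 1075 and 941 RPKM in PTH. Col1a1 and Col1a2, which are not particular to osteocytes, had the highest values in this sum.

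Of the same list, Mmp13, the collagenase of bone remodelling, rose from 0.343 and 0.228 to 2.81 and 1.53 RPKM (log2 fold change 2.52, SE 0.34, adjusted p = 0.0130). Of 26 collagens, 1 was called, Col2a1, at 0.625 and 0.577 RPKM in vehicle and 1.71 and 1.54 RPKM after PTH. This gene also marks chondrocytes, and of the other 5 chondrocyte markers Sox9 was at 1.69 and 1.16 and 1.35 and 1.57 RPKM and the rest were below 0.3 RPKM in all 4 libraries. Of 60 proteoglycan, sulfotransferase and hyaluronan genes, 2 rose and 2 fell. Has2, a hyaluronan synthase, rose from 1.88 and 1.45 to 7.47 and 8.06 RPKM, while 2 enzymes of chondroitin sulfate synthesis fell, Chst15 from 11.2 and 9.49 to 2.28 and 2.36 RPKM and Chsy1 from 13.4 and 11.4 to 4.8 and 5.55 RPKM (adjusted p = 0.00217, 0.00169 and 0.0147). Of 50 laminin, fibronectin, fibulin, thrombospondin and crosslinking genes, 1 rose and 2 fell. The CCN protein Wisp2 rose from 18.1 and 19.5 to 67.8 and 62.2 RPKM and its relative Wisp1 fell from 17.8 and 13.4 to 5.3 and 4.74 RPKM. The thrombospondin Thbs1 fell from 64.8 and 43 to 15 and 16.3 RPKM (adjusted p = 0.0114).

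Among 34 serpins, complement genes and secreted protease regulators, 4 rose and 2 fell (17.6% called). Plau, the urokinase, rose from 16.5 and 17.1 to 38.1 and 38.4 RPKM, and its receptor Plaur from 8.72 and 11.1 to 42 and 35.6 RPKM. F3, tissue factor, fell from 52.6 and 50.3 to 17.4 and 17.4 RPKM (adjusted p = 0.00402). In the 37 genes of the YAP-TEAD pathway, F3 and the cofactor Vgll3 were called lower, 0 were called higher, and the median log2 fold change was -0.27. The 55 SRF and smooth-muscle genes had a median of -0.28 with 1 called lower, Lmod1, at 1.26 and 1.14 RPKM in vehicle and 0.504 and 0.359 RPKM after PTH.

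**Figure D3:**
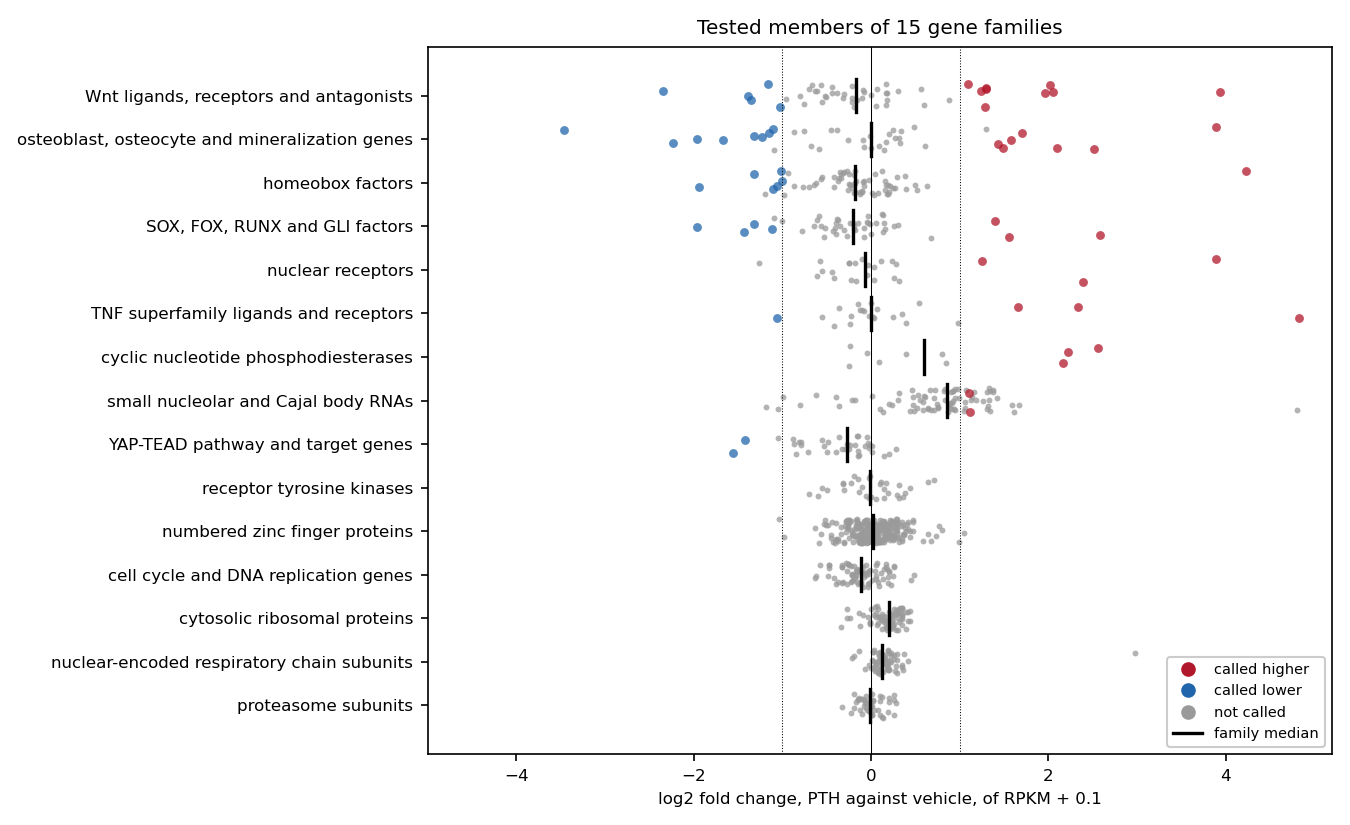
Log2 fold change of every tested member of 15 families, with called members in red (higher) and blue (lower), other members in grey, and the family median as a black bar; dotted lines mark a 2-fold change. Called members lie on both sides in the Wnt and bone families, whereas the cytosolic ribosomal proteins lie between -0.34 and 0.44 and the proteasome subunits between -0.33 and 0.28.

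At the membrane, 5 of 179 solute carriers rose and 3 fell (4.47% called). The amino acid transporter subunit Slc7a7 rose 9.48-fold, from 0.375 and 0.503 to 4.54 and 3.79 RPKM (log2 fold change 2.99, adjusted p = 0.00171), with exons of Oxa1l on the other strand. Slc8a3, a sodium-calcium exchanger, fell from 3.97 and 4.07 to 1.8 and 1.22 RPKM. Without vehicle replicate 2, 9 solute carriers were called lower. Of 66 channel genes, 2 potassium channel genes rose. Kcnk10, a leak channel, went from 0.317 and 0.226 to 2.67 and 2.68 RPKM, and the accessory subunit Kcne4 from 1.6 and 1.82 to 12 and 11.4 RPKM (log2 fold changes 2.91 and 2.70, adjusted p = 0.00217 and 0.000991). Gap junctions link osteocytes to each other. Gja1, connexin 43, rose from 16.3 and 13.9 to 51.3 and 47.1 RPKM and the pannexin Panx3 fell from 25.3 and 25.2 to 13.6 and 10.8 RPKM (adjusted p = 0.00402 and 0.0290). Of 49 other G-protein-coupled receptors, S1pr1, a receptor for sphingosine 1-phosphate, rose from 17 and 16.5 to 46.6 and 43.4 RPKM and the orphan Gpr176 fell 4.59-fold, from 7.35 and 5.73 to 1.46 and 1.39 RPKM (adjusted p = 0.00632 and 0.00244).

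The large families of cell maintenance contained few or no calls. In the 16 families with none called by limma, 73 of 1079 tested members had an unadjusted p under 0.05, and voom called 1. The 86 cytosolic ribosomal proteins had log2 fold changes from -0.34 to 0.44 and 0 members at an unadjusted p under 0.05, and the 47 proteasome subunits likewise had 0. For the 81 cell cycle genes the median was -0.11 with 5 at an unadjusted p under 0.05, and Mki67, a proliferation marker, was at 46.3 and 19.1 RPKM in vehicle and 19.9 and 18.9 RPKM after PTH (adjusted p = 0.579). Of 57 cholesterol and fatty acid genes, 20 had an unadjusted p under 0.05 at a median of -0.20, yet 2 were called higher and 0 lower. Among the 2 was the acyl-CoA synthetase Acsl3, with 23.6 and 19.1 and 62.1 and 57.9 RPKM. Of 52 glycolysis, lactate and pyruvate genes, 1 was called, Pdk4, the kinase that restrains pyruvate use. It was higher, with 2.55 and 1.91 and 5.26 and 5.36 RPKM. In the apoptosis family, Gadd45a rose from 1.51 and 1.72 to 8.5 and 7.83 RPKM and Gadd45g fell from 27.5 and 39.2 to 16.2 and 13.8 RPKM (adjusted p = 0.00166 and 0.0442), and exons of E230016M11Rik overlap Gadd45a on the other strand. Gadd45g was not called with each library centred on its median.

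Family medians are given beside the difference between the vehicle libraries, which some shared in sign and others did not. The ribosomal proteins were higher in vehicle replicate 2 than in replicate 1 by a median of 0.52 on the log2 scale, the histone genes by 0.55 and the nuclear-encoded respiratory chain by 0.51, and their medians for PTH against vehicle were 0.20, 0.19 and 0.12. For semaphorin genes the vehicle difference was -0.51 and for integrins and cadherins -0.41, with medians for PTH of -0.15 and -0.13. Against this, the proteasome subunits had 0.38 in vehicle and -0.01 for PTH, the numbered zinc finger proteins -0.32 and 0.03, and the phosphodiesterases -0.35 and 0.60. Between the PTH libraries, the medians of the first 5 of these families lay between -0.09 and -0.02. The log2 fold change for PTH against vehicle also followed gene length. Its median was 0.07 in the 2818 shortest protein-coding genes and -0.16 in the 2818 longest, with 61.8% and 26.3% of values positive. The part of the vehicle difference and of gene length in the family medians was not tested.

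**Figure D4:**
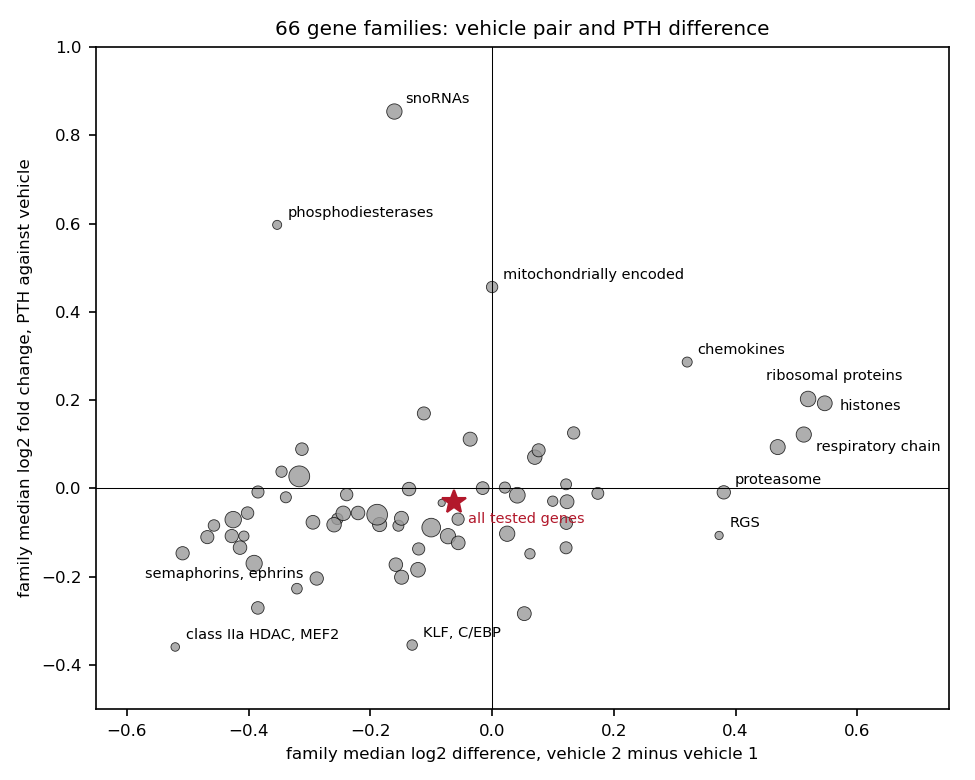
Median log2 difference between the vehicle libraries (replicate 2 minus replicate 1, horizontal) and median log2 fold change for PTH against vehicle (vertical) in the 66 families, with point area growing with the number of tested members. All tested genes (red star) sit at -0.06 and -0.03, and the small nucleolar RNAs at -0.16 and 0.85.

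Small nuclear, small nucleolar and miscellaneous RNAs stood apart from the mRNA families, with most members higher in the PTH libraries. MicroRNA genes did not share this. Of 230 tested, 107 were higher (46.5%) and 0 were called, with a median log2 fold change of -0.11. The 82 small nucleolar and Cajal body RNAs had a median log2 fold change of 0.85, 47 had an unadjusted p under 0.05, and 2 were called (2.44%). Their share of all reads was 0.252% and 0.414% in vehicle and 0.537% and 0.566% in PTH. Snora28 rose from 139 and 169 to 311 and 355 RPKM and Snora62 from 45.5 and 39.4 to 89.1 and 93.5 RPKM (adjusted p = 0.0238 and 0.0222), both guides of RNA pseudouridylation. By annotated type, 14 of 373 small nuclear RNAs (3.75%), 3 of 251 small nucleolar RNAs (1.20%) and 3 of 56 miscellaneous RNAs (5.36%) were called higher and 0 of these were called lower. Together with the mitochondrial tRNA mt-Tl1 they made up 21 of the 156 genes called higher. Another mitochondrial tRNA, mt-Tm, had 632 and 187 RPKM in vehicle and 1447 and 2057 RPKM after PTH without passing (adjusted p = 0.0741). Most small nuclear RNAs are near-identical copies, their libraries are wider than those of mRNAs (median absolute log2 difference of 1.01 in vehicle and 0.66 in PTH), and reads may be divided among the copies, so single members such as Gm22628 (29.1 and 13.2 and 76 and 118 RPKM) are uncertain. Mitochondrially encoded reads were 11.6% and 15% of vehicle and 13.7% and 16.5% of PTH.

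Among called genes in no family, Crispld2, a secreted cysteine-rich protein, rose 28.5-fold, from 0.118 and 0.0810 to 3.19 and 2.46 RPKM. Tll1, a tolloid-like protease that processes procollagen and BMP antagonists, had 4 and 15 reads in vehicle and 247 and 221 after PTH (log2 fold changes 3.87 and 3.80, adjusted p = 0.000991 and 0.00141). Lrrc17, a leucine-rich repeat protein with exons of Fbxl13 on the other strand, rose from 7.64 and 7.93 to 32.8 and 32.7 RPKM. Others that rose were Fam198a, Fam69c, Mcam and C2cd4c, with log2 fold changes between 2.09 and 3.17. With a mean of at least 50 reads, the called genes in no family that fell most were Tmem229b, Dtx4, Murc, Eepd1 and Esm1, by between 1.99 and 2.23 on the log2 scale. Murc, also known as Cavin4, a caveola-associated muscle protein, went from 17.4 and 15.5 to 4.22 and 3.5 RPKM (adjusted p = 0.00217). The Notch modifiers Dtx4 and Lfng both fell, Dtx4 from 4.85 and 4.18 to 1.1 and 0.847 RPKM and Lfng, a glycosyltransferase, from 10.1 and 12 to 3.15 and 3.87 RPKM (adjusted p = 0.00284 and 0.00657). Rcor2, a corepressor, fell from 28.9 and 29.9 to 9.35 and 9.12 RPKM, and the retinoic acid hydroxylase Cyp26b1 fell from 1.77 and 1.16 to 0.421 and 0.368 RPKM (adjusted p = 0.00339 and 0.0206).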

How the data were processed

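RNA depleted of ribosomal RNA was sequenced as paired reads from directional libraries, and per the labels and methods the authors aligned it to mm10 with STAR, counted reads per gene with HTSeq and deposited RPKM values. Whether counting used strand is not stated. The 6 single-library tables were equal to the series table, which was used. RPKM values of the 26214 genes above 0 could be written as whole numbers of reads within 0.001 reads, given the total to which each library was scaled. The gene length recovered with them equalled the annotated merged exons, taken as end minus start, for 9441 genes (36.0%). Where the length was not matched, the read numbers are less certain, and with them the limits of 50 and 3 reads and the variance trend. A floor of 3 reads equals 0.0536 to 0.0857 RPKM for a gene of 2000 bases and covers counting error only.

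The filter required 0.5 RPKM or more in 2 or more libraries of the series and kept 14264 genes, and 3 of these could not be tested. The 4 PTH and vehicle libraries were compared on log2(RPKM + 0.1) with limma 3.58.1 in R 4.3.3, with prior variance following the mean recovered reads and Benjamini-Hochberg adjustment over 14261 genes. Fold changes on this scale understate changes of low genes. Fold differences without log2 are ratios of mean RPKM. Calls required a change of more than 2-fold and an adjusted p under 0.05. Named genes were up to 3 called per family and direction with the largest change and a mean of at least 50 reads, up to 2 by value in a family with none called, up to 10 per direction in no family, and Pth1r, Gnas, Tnfsf11, Sost, Vdr, Smpd3 and Wnt4. Other genes with values in the text, such as Gm16062, Arl4d, Scg2, Runx2, Pparg and Alpl, were chosen after their values were seen. The families and lists were chosen with earlier results of these data known. Same-numbered PTH and vehicle libraries did not deviate together (correlation -0.03). Coordinates and overlaps are from GENCODE M21 (GRCm38), which lacked 2 called identifiers. The recovery of reads and the limma fit were tested on simulated data. Alternatives changed the pseudocount, filter, variance model, libraries, scaling, test and thresholds. Some genes and 1 family are not reported here.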

Additional observations from a re-analysis of the deposited data

How the results depend on the processing

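Every called gene kept its direction in each alternative that tested it, which was all 272 except with a filter at 1 RPKM (260). The 272 calls (156 higher, 116 lower) became 212 (140 and 72) with a pseudocount of 1, 265 (149 and 116) with 0.01, and 260 (153 and 107) or 258 (146 and 112) with a filter at 0.1 or 1 RPKM. With no filter, limma called 0 genes, 0 higher and 0 lower, with 2343 of 25085 at an unadjusted p under 0.05, where voom on the filtered genes called 287 (159 and 128). With prior variance following mean log2 RPKM there were 160 (107 and 53), and with 1 prior variance for all genes 130 (83 and 47), of which 85 were among the 272. Fitting all 6 libraries gave 336 (191 and 145), centring each library gave 264 (156 and 108), and either looser fold limit gave 313 (179 higher). The replicate block gave 440 (278 and 162), although same-numbered libraries share only a number, and it kept all 272. Leaving out 1 library in turn gave between 14 and 669 calls, between 11 and 367 higher and between 2 and 302 lower, and where 1 library was left in a group it was assumed to vary like the other group. The largest counts came without vehicle replicate 2 and the smallest without either PTH replicate. Of 158 called genes with values in the text or named by the rule, 57 were called under every alternative other than no filter and the single left-out libraries. With 1 prior variance, calls of Mef2c, Hdac4, Mgp, Mmp13, Nrp1, Fos, Crem, Dlx3 and Fzd5 were among those lost. The causes were not tested. Genes at or under 3 reads in both vehicle libraries, 3 of the 272, carry no firm fold at this depth.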
